A study of Mus musculus with 3 samples.

Results

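The circadian clock genes Per1, Per2, Per3, Ciart, Nr1d1, Nr1d2, Dbp, Tef, Arntl and Clock were described in 3 brain sections of C57BL/6J mice. They are 10 of the 31053 genes counted, and each was found by its symbol in the gene list deposited with the counts. Spatial transcriptomes were made on Visium arrays, which capture RNA from a section on spots that each carry a barcode, from 10 μm sections of fresh-frozen tissue. Y-Ctrl and O-Ctrl are labelled Control and O-Ex is labelled Exercise. The series is about exercise in the aging brain, so Y and O are read here as young and old. All 3 are wild-type brains and no other agent or allele is named. The labels used here give no age, sex, kind or length of exercise, number of animals or hour of collection. The molecule is labelled nuclear RNA, but the RNA came from whole sections by the protocol. There was 1 section per group, so no difference between groups could be tested: each value below is a description of 3 sections, and each interval covers counting error only. Where groups differ, age, exercise, the animal, the plane of the section and the hour of collection cannot be told apart.

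The mammalian clock is a loop of transcription that runs in most cells, brain cells included. CLOCK and BMAL1, the protein made from Arntl, bind E-box motifs as a pair and drive Per1, Per2, Per3, Ciart, Nr1d1, Nr1d2, Dbp and Tef. The PER proteins and CIART then hold the pair back, NR1D1 and NR1D2 (the REV-ERB receptors) repress Arntl through RRE motifs, and DBP and TEF act on D-box motifs. In most tissues the transcripts driven through E-boxes therefore crest many hours away from Arntl, while Clock itself changes little over the day. Per1 and Per2 also respond within the hour to neuronal activity and to hormones.

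The motifs that join these genes into a loop were read in RefSeq promoters (build GRCm38.p6), windows of 300 bases from 250 before to 50 after each transcription start. Of the 10 genes, 9 matched the promoter table, with 14 promoters in all, and Per2 did not. The letters searched on both strands were CACGTG for the E-box, TTATGTAA and TTATGCAA for the D-box, TAGGTCA and TGGGTCA for the RRE core, and TGACGTCA for the cyclic AMP response element. The E-box was in promoters of Per1, Ciart and Tef and in 7.15% of all 32851 promoters. The D-box was in those of Per1 and Per3 and in 1.66% of all promoters. The RRE core was in 1 promoter of Arntl and in 6.45% of all. The cyclic AMP response element was in none of the 14 and in 1.79% of all. A match is a run of letters in this window and says nothing of binding in these sections. The promoters with most matches and the Arntl match are shown 5′ to 3′ on the gene's own strand, with the motifs in capitals. The Ciart sequence is chr3:95882229-95882478, minus strand, with E-boxes beginning at -116, -58 and -44 from the start site. The Per1 sequence is chr11:69098699-69098948, plus strand, with an E-box at -166 and a D-box at -24. The Per3 sequence is chr4:151044666-151044915, minus strand, with D-boxes at -205 and -158. The Arntl sequence is chr7:113207531-113207557, plus strand, and its RRE core begins at position +31, with the first transcribed base as +1.
Ciart: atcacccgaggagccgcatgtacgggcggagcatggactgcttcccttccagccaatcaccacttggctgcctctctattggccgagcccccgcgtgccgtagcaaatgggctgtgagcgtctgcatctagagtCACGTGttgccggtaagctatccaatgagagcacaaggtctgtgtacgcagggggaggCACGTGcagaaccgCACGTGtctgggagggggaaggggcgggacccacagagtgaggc
Per1: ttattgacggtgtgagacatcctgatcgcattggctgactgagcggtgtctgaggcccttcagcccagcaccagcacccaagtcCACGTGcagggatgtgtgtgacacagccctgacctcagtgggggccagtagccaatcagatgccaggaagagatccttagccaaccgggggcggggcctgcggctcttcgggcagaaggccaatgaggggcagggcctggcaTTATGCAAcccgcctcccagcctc
Per3: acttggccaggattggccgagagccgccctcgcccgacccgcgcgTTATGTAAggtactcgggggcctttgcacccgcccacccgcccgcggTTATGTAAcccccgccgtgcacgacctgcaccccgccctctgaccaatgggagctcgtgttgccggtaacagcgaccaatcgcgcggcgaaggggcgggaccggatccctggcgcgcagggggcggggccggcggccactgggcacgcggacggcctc
Arntl: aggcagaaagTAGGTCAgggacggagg

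Each array held 4992 barcodes, the same 4992 in the 3 sections, and those with at least 3000 UMIs were kept as spots over tissue: 3409 of Y-Ctrl, 3498 of O-Ctrl, 3332 of O-Ex. A UMI marks 1 captured RNA molecule. The kept spots held 61186997, 57003788 and 51862713 of them, between 97.5% and 98.1% of each array. The median spot had 15718, 14900 and 13685 UMIs in these sections, and mitochondrially encoded genes took 19.7%, 19.7% and 17.8% of UMIs. Levels are given as CPM, UMIs of a gene per 1000000 UMIs of the section. The sections did not hold the regions in equal amounts: the 9 thalamus markers summed to 701, 440 and 440 CPM in Y-Ctrl, O-Ctrl and O-Ex, and the 8 choroid plexus markers to 4631, 5560 and 14088 CPM. The 5 blood markers summed to 1134, 1100 and 2040 CPM. In such bulk sums, fewer cells of a type and less RNA per cell cannot be told apart.

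The Period genes encode the repressor proteins at the core of the loop, and they took 3 different orders over the sections. Per1 (ENSMUSG00000020893, mm10 chr11:69095217-69109960) stood at 35.4 CPM in Y-Ctrl, 32.7 CPM in O-Ctrl and 28.5 CPM in O-Ex, with 95% exact Poisson intervals of 33.9 to 36.9, 31.2 to 34.2 and 27.1 to 30.0. It was highest in the young section and lowest in the exercised one, and the intervals of the control sections overlapped narrowly. Per2 (ENSMUSG00000055866, chr1:91415982-91459324) stood at 11.0 CPM in Y-Ctrl, 11.2 CPM in O-Ctrl and 15.8 CPM in O-Ex. The controls could not be told apart in Per2 and the exercised section lay above both, its interval of 14.8 to 17.0 clear of the O-Ctrl interval of 10.4 to 12.1. Per3 (ENSMUSG00000028957, chr4:151003652-151044665) stood at 10.8, 10.3 and 13.7 CPM in the same order of sections. It repeated the form of Per2, with overlapping controls and an interval of 12.7 to 14.7 in O-Ex.

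Ciart (ENSMUSG00000038550, chr3:95878503-95882251), whose protein represses the CLOCK and BMAL1 pair, was the least counted of the 10, with 462, 495 and 482 UMIs. Its level was 7.55 CPM in Y-Ctrl, 8.68 CPM in O-Ctrl and 9.29 CPM in O-Ex. The intervals of the old sections overlapped, and so did those of the controls (6.88 to 8.27 and 7.94 to 9.48). Nr1d1 (ENSMUSG00000020889, chr11:98767932-98775333), a REV-ERB receptor gene, stood at 33.3 CPM in Y-Ctrl, 37.1 CPM in O-Ctrl and 35.4 CPM in O-Ex. The 2 old sections overlapped within counting error and O-Ctrl lay above Y-Ctrl. Nr1d2 (ENSMUSG00000021775, chr14:18204054-18239127), the other REV-ERB gene, stood at 73.5, 71.7 and 78.9 CPM, with the controls overlapping and O-Ex above both.

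The output genes Dbp and Tef encode D-box activators of 1 family. Dbp (ENSMUSG00000059824, chr7:45705088-45710203) stood at 76.4 CPM in Y-Ctrl, 81.2 CPM in O-Ctrl and 80.1 CPM in O-Ex. Dbp is among the genes with the widest daily swing in most tissues, and here its highest section lay 1.06-fold (95% interval 1.02 to 1.11) above its lowest. Tef (ENSMUSG00000022389, chr15:81802421-81826863) stood at 101, 106 and 111 CPM, 1.10-fold (1.06 to 1.14) from Y-Ctrl to O-Ex.

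Of the activators, Arntl varied and Clock did not vary much. Arntl (ENSMUSG00000055116, chr7:113207465-113314126) stood at 24.3 CPM in Y-Ctrl, 17.9 CPM in O-Ctrl and 19.3 CPM in O-Ex, with intervals of 23.1 to 25.6, 16.8 to 19.1 and 18.1 to 20.6. The young section lay above both old ones, which overlapped. Clock (ENSMUSG00000029238, chr5:76209868-76304792) stood at 32.1, 29.1 and 32.2 CPM, with O-Ctrl the lowest and the other sections overlapping.

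**Figure D1:**
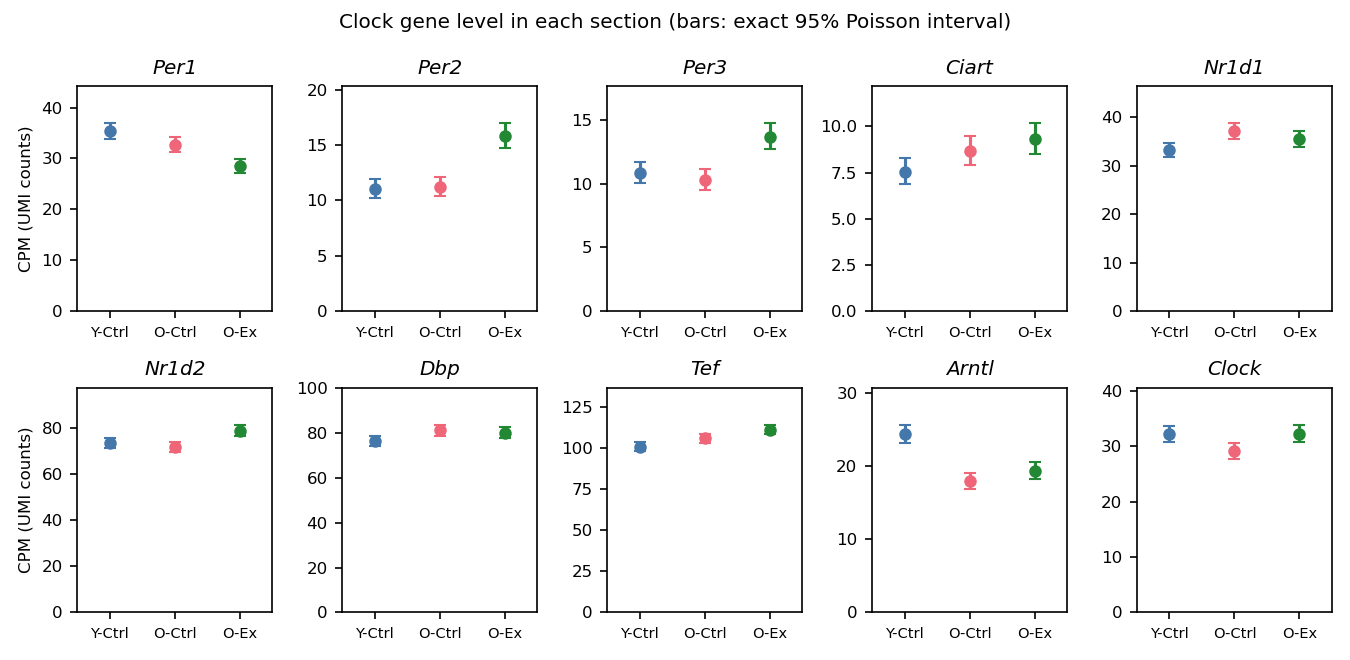
Level of each clock gene (CPM of UMI counts, axis from 0) in the 3 sections, 1 per group; bars are exact 95% Poisson intervals, which cover counting error only. Arntl stands highest in Y-Ctrl at 24.3 CPM, and Per2 and Per3 stand highest in O-Ex at 15.8 and 13.7 CPM.

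The comparison of O-Ctrl with Y-Ctrl sets an old brain against a young one, both without exercise. Arntl was the clock gene that differed most: it was 1.36-fold lower in O-Ctrl (interval 1.251 to 1.47), a log2 ratio of -0.44. Clock, its partner, had a log2 ratio of -0.14. The genes driven through E-boxes lay close to 0, with Ciart at 0.20, Nr1d1 at 0.16, Dbp at 0.09, Tef at 0.07, Per2 at 0.02, Nr1d2 at -0.04, Per3 at -0.07 and Per1 at -0.11. Their median was 0.05, beside -0.01 over the 9013 genes that averaged 10 CPM or more. A log2 ratio beyond 0.32 in size, called a marked difference below, was used to describe genes. Of the 9 clock genes that reached 10 CPM (Ciart did not), none was markedly higher, beside 2.32% of all genes, and Arntl alone was markedly lower, beside 2.17%. The log2 ratio of Arntl lay below that of 99.1% of genes.

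The Arntl difference was smaller when like spots were compared. Spots were clustered without the clock genes, and the log2 ratio was averaged over 14 clusters that had at least 50 spots in every section. A cluster was named where at least 4 fixed markers of a region were among its 30 leading genes, which gave the thalamus, striatum, hypothalamus, cortical layer 6, white matter and choroid plexus, and the other shared clusters are called by their 2 leading genes. This region-matched log2 ratio was -0.25 for Arntl, and none of the 9 clock genes differed markedly by it, beside 3.72% of all genes. Arntl was lower in O-Ctrl in 12 of the 14 clusters, and in 2 of them the counting interval lay clear of no difference. Those 2 were the thalamus, at 35.9 CPM in Y-Ctrl against 24.4 in O-Ctrl, and the Dkkl1/Egr1 spots, at 30.6 against 22.1. The hypothalamus, at 12.2 against 14.2, and the choroid plexus, at 11.8 against 16.7, went the other way within counting error. Y-Ctrl held 341 thalamus spots and 309 spots of a cluster led by Ctxn3 and Cbln1, with 3 thalamus markers, against 248 and 76 in O-Ctrl. All 9 thalamus markers were lower in O-Ctrl over the whole section, and Arntl was among the highest in thalamus spots. The part of this in the whole-section value was not tested beyond the matched value above. With spots grouped by marker panels instead of clusters, the matched log2 ratio was -0.39, beyond 0.32.

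Nr1d1 showed the opposite lean. It was higher in O-Ctrl in 10 of 14 clusters, in 5 of them with an interval clear of no difference, and those were cortical layer 6 and the clusters led by Vip, Dkkl1, Lypd1 and Tshz2. The cluster led by Tshz2 and Pvalb held it at 39.4 CPM in Y-Ctrl and 54.1 in O-Ctrl, and cortical layer 6 at 27.5 and 36.1. Ciart was higher in 12 of 13 clusters with enough counts, by a matched log2 ratio of 0.30, but none of its intervals was clear of no difference.

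The comparison of O-Ex with O-Ctrl sets an exercised old brain against an old one that was not. Per2 and Per3 were higher in O-Ex. Per2 was 1.41-fold higher (interval 1.27 to 1.57; log2 ratio 0.50) and Per3 1.33-fold higher (1.19 to 1.49; log2 ratio 0.41). The third Period gene, Per1, went the other way, with a log2 ratio of -0.20 (1.15-fold lower, 1.07 to 1.23). Nr1d2 at 0.14, Clock at 0.15, Arntl at 0.11, Ciart at 0.10, Tef at 0.07, Dbp at -0.02 and Nr1d1 at -0.07 differed less. Of 9 clock genes, 2 were markedly higher, beside 5.76% of all genes, and none was markedly lower, beside 0.655%.

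Genes as a whole leaned towards higher values in O-Ex, with 69.8% of them above 0. Over the 9013 genes the median log2 ratio was 0.07, with 519 genes markedly higher and 59 lower, and the median of the genes driven through E-boxes was 0.08. With TMM scaling, which sets the bulk of genes equal between sections, the split over all genes was 251 higher and 152 lower and the E-box median -0.0045. Per2 and Per3 stayed beyond 0.32 under TMM, while Tef turned from 0.07 to -0.02. With a pseudocount of 5 CPM Per3 was at 0.29.

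Per2 and Per3 were higher in O-Ex in most shared clusters, but within counting error in most single clusters. By the matched ratio the same 2 of 9 clock genes were markedly higher, beside 5.87% of all genes. Of all genes, 72.7% were above 0 by the matched ratio. Per2 was higher in 12 of the 13 clusters with enough counts, by a matched log2 ratio of 0.56, as large as over whole sections. In 5 of these clusters its counting interval lay clear of no difference. In cortical layer 6 it stood at 15.9 CPM in O-Ctrl and 15.3 in O-Ex. Its largest ratio, 2.33-fold (1.36 to 4.20), was in the cluster led by Igfbp6 and Ptgds, with 3 meningeal markers among its leading genes, at 9.39 against 21.9 CPM. That cluster was shallow in O-Ex, with a median of 5488.5 UMIs per spot against 13129 in O-Ctrl. In the Vip/Lamp5 spots Per2 stood at 16.9 and 23.9 CPM, in the hypothalamus at 9.15 and 14.8, and in the thalamus at 7.54 and 11.7. Per3 was higher in 11 of 14 clusters, in 4 of them with an interval clear of no difference, and its matched log2 ratio was 0.41. It stood at 10.3 and 17.4 CPM in the striatum and at 12.2 and 11.97 in the hypothalamus. Per1 was lower in 9 of 14 clusters.

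Small hippocampal clusters, too few in spots to enter the matched ratio, held wider contrasts. In a CA1 cluster led by Spink8, with 33, 27 and 30 spots, Per2 stood at 14.1 CPM in Y-Ctrl, 15.4 CPM in O-Ctrl and 37.4 CPM in O-Ex. The O-Ex interval of 28.0 to 49.0 was clear of both others. In the same spots Arntl stood at 55.8, 25.3 and 30.4 CPM, its highest level in any cluster and section, with Y-Ctrl (44.7 to 68.8) clear of both old sections. In the dentate gyrus, with 27, 24 and 29 spots, Arntl was at 32.7, 15.4 and 18.7 CPM with overlapping intervals. These clusters were singled out after their values were seen.

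O-Ex was also compared with Y-Ctrl, a comparison that shares its sections with the other 2 and differs in both age and exercise. Per2 was 1.43-fold higher in O-Ex (1.29 to 1.59), Per3 1.26-fold higher (1.13 to 1.41) and Arntl 1.26-fold lower (1.16 to 1.36). Per1 was 1.24-fold lower (1.16 to 1.33), a log2 ratio of -0.31. Of 9 clock genes, 2 were markedly higher, beside 8.89% of all genes, and 1 markedly lower, beside 2.37%. By the matched ratio Per2 and Per3 were beyond 0.32, beside 9.94% of all genes, and so was Ciart, which is under 10 CPM, while Arntl (-0.18) was not. The split over all genes was 801 higher and 214 lower with CPM, and 455 and 436 with TMM scaling. The Per3 ratio of 0.34 fell within 0.32 under TMM scaling (0.25), without mitochondrially encoded genes (0.30) and with pseudocounts of 1 and 5 CPM (0.31 and 0.24). The same pseudocounts ended the call of Arntl (-0.32 and -0.27). Per1 passed 0.32 under TMM (-0.40) and without mitochondrially encoded genes (-0.35), and Dbp turned from 0.07 to -0.02 under TMM.

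**Figure D2:**
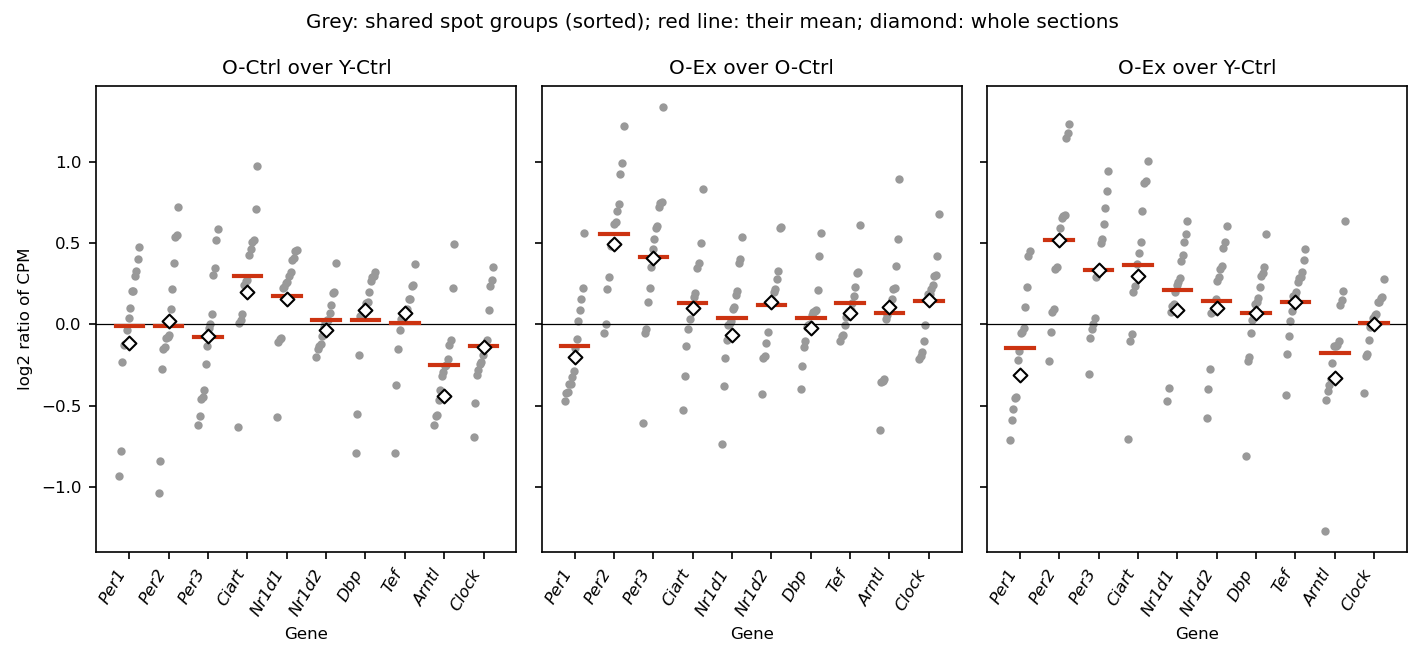
Log2 ratio of CPM for each clock gene in the 3 comparisons; grey points are shared spot clusters with at least 20 counts of the gene in the pair of sections, sorted within a gene, the red line is their mean and the diamond the whole sections. Arntl lies at -0.44 over whole sections and -0.25 over clusters in O-Ctrl over Y-Ctrl, and Per2 at 0.50 and 0.56 in O-Ex over O-Ctrl.

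No single order of the sections ran through the clock genes. Nr1d1 and Dbp were ordered O-Ctrl, O-Ex, Y-Ctrl from high to low. Per2, Ciart and Tef were ordered O-Ex, O-Ctrl, Y-Ctrl, and Per3, Nr1d2 and Clock O-Ex, Y-Ctrl, O-Ctrl. Per1 was ordered Y-Ctrl, O-Ctrl, O-Ex, and Arntl Y-Ctrl, O-Ex, O-Ctrl. So 5 orders occurred among 10 genes, and with CPM O-Ex was highest for 6 of them. For each of the 10 genes, at least 1 pair of sections next to each other in its order had overlapping counting intervals. No full order was therefore resolved beyond counting error. With TMM scaling Tef was no longer highest in O-Ex. Of all 9013 genes, 69.8% were higher in O-Ex than in O-Ctrl and 63.6% were higher in O-Ex than in Y-Ctrl. The share of all genes that were highest in O-Ex is not given here, over whole sections or within clusters. Within clusters the orders were loose: a gene's whole-section order was found in 3 of 14 clusters for Nr1d2 and Dbp and in at most 7 of 14, for Per3, Ciart, Tef and Arntl. Per2 was highest in O-Ex in 11 of 14 clusters, Per3 in 10, and Arntl was highest in Y-Ctrl in 9 and lowest in O-Ctrl in 10. With no hour of collection in the labels, no phase was read from these orders.

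The count of each E-box gene was then divided by that of Arntl in the same section, which removes any scaling between sections. In the young section all 8 quotients were lowest. From Y-Ctrl to O-Ctrl they were higher by 1.254-fold for Per1 to 1.56-fold for Ciart, and the 95% binomial intervals of all 8 were apart. Dividing by Arntl does not remove the unequal mix of regions in whole sections. By cluster the O-Ctrl quotient was the higher in 8 of 14 for Per3, up to 12 of 14 for Nr1d1 and Nr1d2. The Nr1d1 quotient was 1.37 (1.28 to 1.47) for Y-Ctrl, 2.07 (1.92 to 2.23) for O-Ctrl and 1.83 (1.70 to 1.98) for O-Ex. The Dbp quotient was 3.14, 4.53 and 4.15. These 8 share Arntl as their divisor, so they repeat its difference and do not add to it. From O-Ctrl to O-Ex only Per2 (1.31-fold), Per3 (1.23-fold) and Nr1d2 (1.02-fold) were higher, with the intervals of Per2 and Per3 apart, and Per1 was lower (0.808-fold) with its intervals apart. Against Y-Ctrl, the O-Ex quotient was higher by 1.80-fold for Per2 and 1.59-fold for Per3, and Per1 alone had overlapping intervals, at 1.01-fold. Clock over Arntl was 1.32, 1.62 and 1.67.

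**Figure D3:**
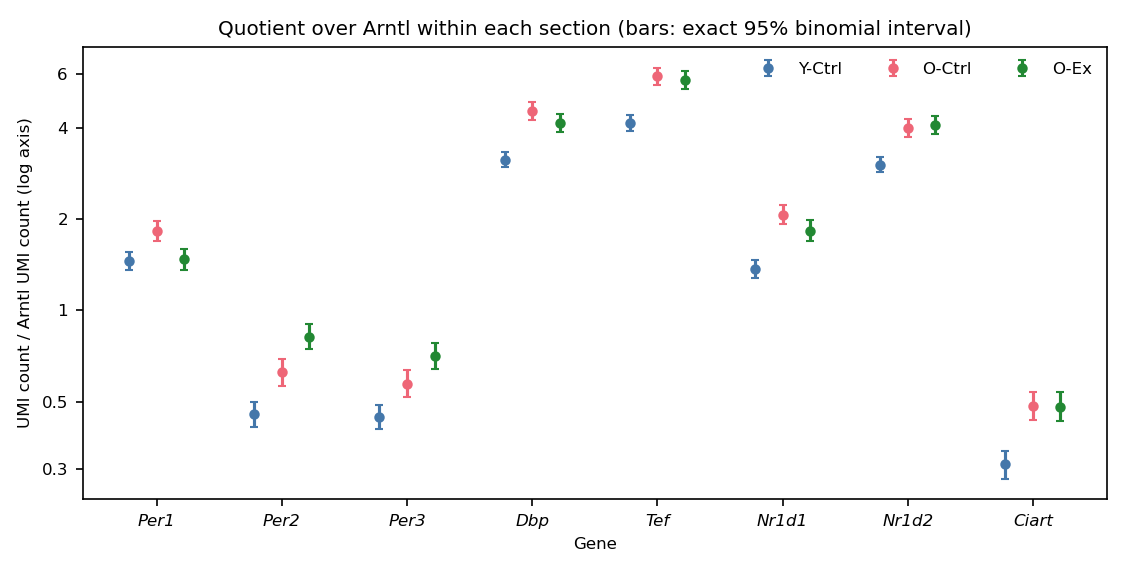
UMI count of each E-box gene divided by the Arntl count of the same section (log axis), in the 3 sections; bars are exact 95% binomial intervals for counting error. Y-Ctrl is lowest for all 8 genes, and the Per2 quotient is 0.455, 0.625 and 0.819 from left to right.

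Across the 14 shared clusters the order of levels was alike between sections for 8 of the 10 genes, with Spearman's rho between pairs of sections from 0.58 to 0.96, while rho was 0.13 to 0.49 for Per3 and 0.31 to 0.65 for Clock. These are descriptions over clusters that share 3 libraries. Among the shared clusters the 2 REV-ERB genes were highest in the thalamus. Nr1d1 stood there at 55.4, 64.7 and 65.6 CPM in Y-Ctrl, O-Ctrl and O-Ex, above every section of the next cluster, Dkkl1/Egr1 spots at 47.6 ± 5.49 (mean ± SD over the 3 sections, which differ in group, n = 3). Nr1d2 stood there at 131, 121 and 139 CPM, above the Tshz2/Pvalb cluster at 99.4 ± 5.86. Their low ends differed, at 19.9 ± 2.79 CPM in the hypothalamus for Nr1d1 and 41.1 ± 10.4 in the cluster led by Cabp7 and Ddn for Nr1d2.

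Among the shared clusters Arntl and Clock were also highest in the thalamus, but not apart from others. Arntl averaged 29.6 ± 5.84 CPM in the thalamus, 28.8 ± 3.20 in the Vip/Lamp5 cluster and 10.3 ± 1.85 in white matter, its lowest. The small CA1 cluster led by Spink8, left out of this ranking, held Arntl at 55.8, 25.3 and 30.4 CPM in Y-Ctrl, O-Ctrl and O-Ex. The thalamus was lower in each section, at 35.9, 24.4 and 28.4 CPM, with counting intervals apart in Y-Ctrl only. Clock was the most even of the 10, from 39.1 ± 3.70 CPM in the thalamus to 24.2 ± 2.41 in the Cabp7/Ddn cluster, 1.62-fold. It was high in the choroid plexus, at 35.03 ± 4.34 CPM, where Tef and Ciart were lowest.

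The Period genes, Ciart and Tef were, of the shared clusters, highest in the cluster led by Vip and Lamp5. It has 3 markers of the upper cortical layers among its leading genes. Tef averaged 159 ± 15.8 CPM there, above every section of the striatum at 126 ± 7.56, and 44.0 ± 7.46 in the choroid plexus. Per1 averaged 43.9 ± 6.78 CPM in that cluster and 16.7 ± 2.59 in the cluster led by Gad2 and Agt, with 9 clusters overlapping at the top. Per2 averaged 19.8 ± 3.63 CPM and 4.43 ± 0.166 in white matter. Per3 was nearly flat over the shared clusters, from 15.7 ± 2.83 to 8.86 ± 2.17 CPM in the cluster led by Lypd1 and Nptxr. For Per3 the SD of log2 levels between clusters, 0.26, was smaller than that between sections within a cluster, 0.36, and for Clock the 2 were 0.19 and 0.19. Ciart spanned most, 5.54-fold from 13.3 ± 1.31 to 2.39 ± 0.593 CPM in the choroid plexus, on as few as 4 UMIs in a cluster. The Tshz2/Pvalb spots were close to its top, at 11.1, 13.5 and 14.5 CPM in Y-Ctrl, O-Ctrl and O-Ex. Dbp was highest in the striatum, at 116 ± 16.1 CPM, overlapping the Vip/Lamp5 cluster and the thalamus, and lowest in white matter at 52.0 ± 2.56. Small clusters were left out of this ranking. Among them the dentate gyrus stood above the Vip/Lamp5 cluster for Tef, at 221, 186 and 235 CPM in Y-Ctrl, O-Ctrl and O-Ex. The dentate gyrus (16.9, 23.1 and 27.3 CPM) and the meninges (19.3, 19.0 and 21.7) did so for Per3, on as few as 14 UMIs. For Per2 the CA1 cluster led by Spink8 did so in O-Ex only, at 37.4 against 23.9 CPM. The dentate gyrus did so for Per2 in O-Ctrl only, at 21.5 against 16.9. For Dbp the Spink8 cluster stood above the striatum in O-Ctrl (144 against 133 CPM) and O-Ex (107 against 101), but not in Y-Ctrl (76.9 against 116).

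**Figure D4:**
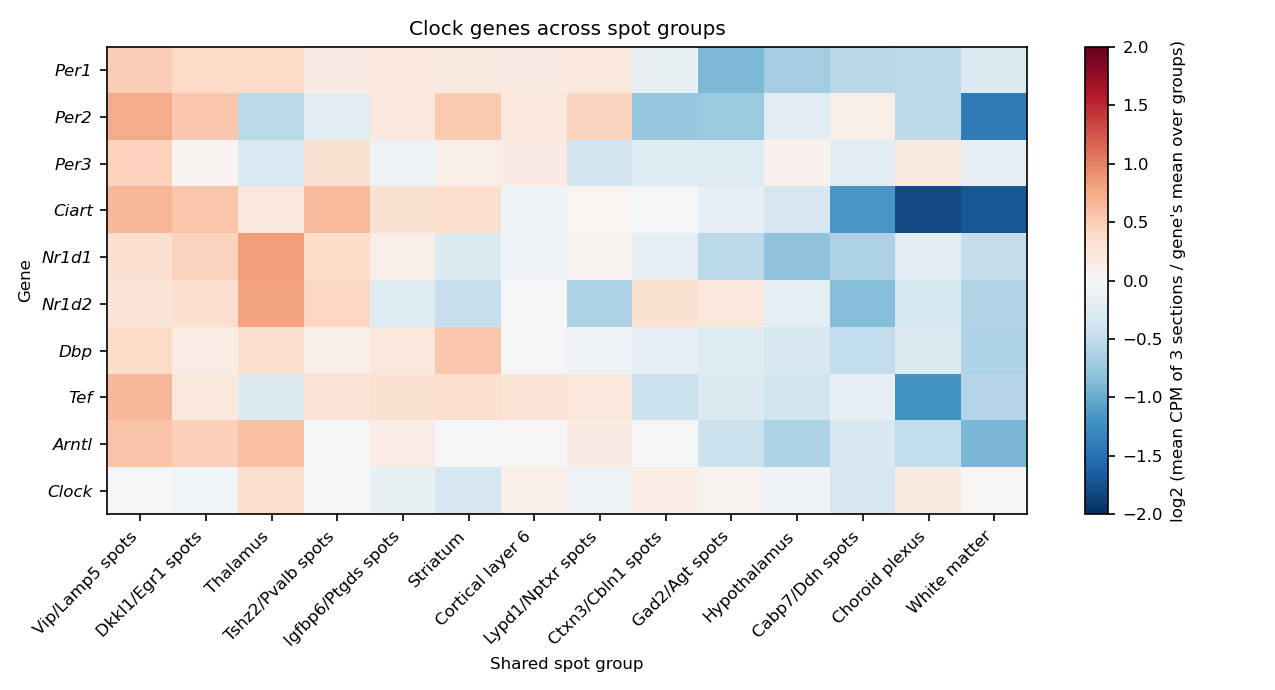
Mean CPM of the 3 sections in each shared spot cluster, as log2 of its ratio to the gene's mean over clusters (colour; red higher, blue lower), for the 10 clock genes. The Vip/Lamp5 spots and the thalamus are at the red end for most genes, and white matter and choroid plexus are blue for Ciart, at 2.56 and 2.39 CPM, but not for Clock.

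Neighbouring clusters in these orders mostly overlapped. For Per1, Per3, Arntl and Clock all 13 neighbouring pairs had overlapping section values, and Tef had 3 pairs apart, the most of the 10. Within the choroid plexus, where O-Ex had 184 spots while Y-Ctrl had 116 and O-Ctrl 101, several clock genes were highest in Y-Ctrl. Dbp stood there at 87.6, 59.8 and 50.01 CPM, Nr1d2 at 67.9, 61.3 and 45.5 and Tef at 52.6, 40.7 and 38.8. Of the 8 genes driven through E-boxes, 7 had enough counts in choroid plexus spots, and these 7 were lower in O-Ex than in Y-Ctrl, with a median log2 ratio of -0.45. Ciart had 9 and 7 UMIs there, too few for a ratio. In the Ctxn3/Cbln1 spots 1 of the 8 was higher (median -0.25) and in the striatum 4 of 8 (-0.02), while all 8 were higher in the clusters led by Lypd1, Gad2 and Cabp7. Of all 9013 genes, 66.8% were above 0 by the matched ratio of O-Ex over Y-Ctrl. The share of all genes within a single cluster is not given here, so these counts are not set apart from it. Spots of the choroid plexus also hold neighbouring tissue, and the part of its share in these values was not tested.

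**Figure D5:**
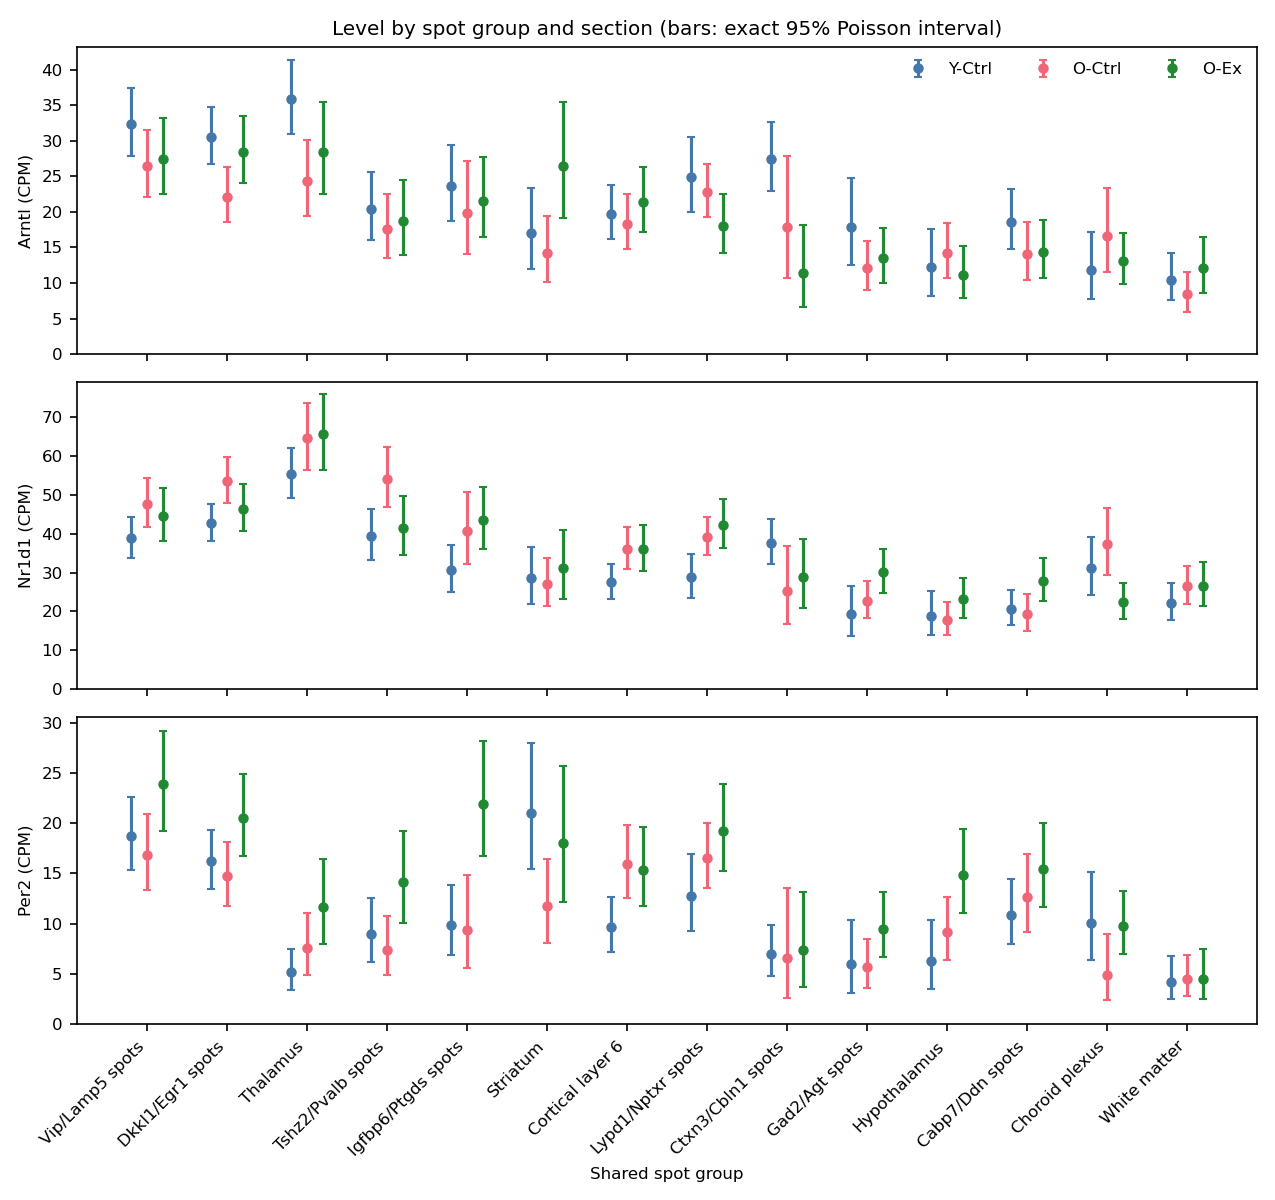
Level (CPM, axes from 0) of Arntl, Nr1d1 and Per2 in each shared spot cluster and section; bars are exact 95% Poisson intervals. Arntl is lower in O-Ctrl than in Y-Ctrl in 12 of 14 clusters, Nr1d1 is highest in the thalamus in all 3 sections, and Per2 is highest in O-Ex in 11 of 14.

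The suprachiasmatic nucleus, the hypothalamic pacemaker, was not seen. Of 7 markers (Nms, Prok2, Rgs16, Vip, Lhx1, Six6 and Syt10), no spot held more than 3 in Y-Ctrl and O-Ex or 2 in O-Ctrl. The values above are therefore those of clocks outside the pacemaker as far as these markers show.

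Further clock genes were listed, including Cry1, Cry2, Npas2, Rora, Rorb, Nfil3, Hlf, Bhlhe40, Bhlhe41, Arntl2, Timeless and Cipc, of which 9 reached 10 CPM. In O-Ctrl over Y-Ctrl, Rora and Rorb were markedly lower, beside 2.17% of all genes, and none was markedly higher, beside 2.32%. The median log2 ratio of the 9 was -0.21, or -0.06 by the matched ratio, beside -0.01 by either over all genes. The matched ratio ended both calls (-0.29 for Rora and -0.17 for Rorb) and put Cry1 beyond 0.32 on the lower side (-0.34, against -0.26 over whole sections). Rora encodes a receptor that activates Arntl through the RRE, the site the REV-ERB receptors repress. It stood at 109 CPM in Y-Ctrl, 69.5 CPM in O-Ctrl and 64.8 CPM in O-Ex, with a whole-section log2 ratio of -0.65 between the controls. Rora is also strong in the thalamus, where it stood at 638, 528 and 524 CPM. Rorb, its relative, stood at 35.7, 28.3 and 26.4 CPM. Hlf, a D-box activator like Dbp and Tef, stood at 131, 106 and 122 CPM, with a matched log2 ratio of -0.04 in O-Ctrl over Y-Ctrl. Npas2, which can stand in for CLOCK, stood at 14.97, 12.95 and 13.94 CPM. In O-Ex over O-Ctrl the median of the 9 was 0.08, beside 0.07 over all genes. Of the 9, 1 was markedly higher, beside 5.76% of all genes, and none markedly lower, beside 0.655%. That gene was Cry1, the partner of the Period proteins, at 14.0, 11.7 and 16.0 CPM, 1.37-fold higher (1.24 to 1.52) and higher in 13 of 14 clusters. Of all genes, 72.7% were above 0 by the matched ratio of this comparison. Cry2 stood at 55.7, 55.1 and 52.9 CPM and did not follow Cry1. In O-Ex over Y-Ctrl, Rora and Rorb were markedly lower (-0.75 and -0.44), beside 2.37% of all genes, and none was markedly higher, beside 8.89%. By the matched ratio Rora was at -0.30, no longer a marked difference, and Rorb at -0.34.

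Of 9 genes of clock protein turnover, mostly kinases and ubiquitin ligase parts, 8 reached 10 CPM and none of these differed markedly in any of the 3 comparisons. Csnk1d and Csnk1e, kinases of the PER proteins, stood between 60.9 and 63.6 CPM and between 47.7 and 49.1 CPM over the sections. Among 6 further output genes that reached 10 CPM, 1 was markedly higher in each comparison and none markedly lower. That gene was Tspo, also a microglial gene, at 11.4, 18.6 and 25.1 CPM. In O-Ex over O-Ctrl the matched ratio ended its call, with a log2 ratio of 0.09 against 0.43 over whole sections, and it was higher in 7 clusters and lower in 7.

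Signals that act on the clock were listed too. Beside the counts below, 2.32% of all genes were markedly higher and 2.17% lower in O-Ctrl over Y-Ctrl. In O-Ex over O-Ctrl these shares were 5.76% and 0.655%, or 5.87% in either direction by the matched ratio. Of 7 genes driven by body temperature, Cirbp and Rbm3, the cold-induced RNA-binding proteins, had log2 ratios between -0.02 and 0.12 in the 3 comparisons. Hspa1a, a heat-induced chaperone, stood at 10.1, 12.8 and 14.5 CPM and Hspa1b at 9.12, 10.2 and 15.4, markedly higher in O-Ctrl over Y-Ctrl and in O-Ex over O-Ctrl respectively. Of 6 glucocorticoid-responsive genes that reached 10 CPM, 1 was markedly higher and 2 markedly lower in O-Ex over O-Ctrl. Fkbp5 was higher, with a log2 ratio of 0.35. Sgk1 stood at 129 CPM in O-Ctrl and 86.6 in O-Ex, and Nfkbia at 25.2 and 18.9. By the matched ratio 1 of the 6 was higher and 3 lower. In O-Ctrl over Y-Ctrl none of the 6 differed markedly. The immediate early genes, which report recent neuronal activity, differed far more than the clock. Of 9 that reached 10 CPM, 8 were markedly lower in O-Ctrl than in Y-Ctrl, with a median log2 ratio of -0.73, Arc at 62.3 against 27.8 CPM and Fos at 24.2 against 10.6. In O-Ex over O-Ctrl, 2 were markedly higher and 3 lower. Egr1 stood at 85.6 CPM in O-Ctrl and 127 in O-Ex, and Dusp1 at 27.1 and 17.8. By the matched ratio 3 were higher and 2 lower, and the median turned from -0.12 to 0.05. Per1 shares activity-driven control with these genes. Its order of sections, Y-Ctrl, O-Ctrl, O-Ex from high to low, was that of 5 of the 9, Junb, Arc, Nr4a1, Ier2 and Dusp1, while Fos, Egr1 and Nptx2 ran Y-Ctrl, O-Ex, O-Ctrl and Homer1 was highest in O-Ex. The order of Per1 was also that of Cry2, Rora and Rorb, and its share over all genes is not given here. The part of the immediate early genes in the Per1 value was not tested.

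The genes that varied most like Dbp and most like Arntl were found by Pearson correlation of log2(CPM + 1), centred within each cluster, over 42 points, the 14 clusters in 3 sections. The points share 3 libraries and their depth, so these are descriptions. Dbp was most like Prkar2a, a regulatory subunit of protein kinase A (r = 0.85), then Celf6 (0.80), Ptprn (0.79), Nedd4l (0.76), Cbarp (0.76) and Crebbp (0.75). Of the clock genes, Tef (0.71), Nr1d1 (0.56) and Nr1d2 (0.52) were most like Dbp, while Per1 (0.31), Per2 (0.25) and Per3 (0.06) were less so and Arntl was at -0.24. Arntl was most like Jpt1 (0.76), Fads1 (0.76), Nav3 (0.72), Hpcal4 (0.71), Agpat5 (0.69) and Evc2 (0.69), and of the clock genes Clock was nearest, at 0.28.

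Some members overlap other genes in the annotation (GENCODE vM21), and whether counting used strand is not given in the sources used here, so reads could be shared. Per3 overlaps Camta1 on the same strand, which stood at 150, 157 and 178 CPM with a log2 ratio of 0.18 in O-Ex over O-Ctrl. On opposite strands, Nr1d1 overlaps Thra (388, 384 and 350 CPM), Dbp overlaps Sphk2 (14.8, 14.5 and 18.1 CPM), Ciart overlaps C920021L13Rik (2.63, 2.58 and 2.56 CPM) and Tef overlaps Gm17597 (1.44, 0.789 and 1.21 CPM). Arntl overlaps Gm45355, which had no UMI, a count of 0 that allows up to 0.0578 CPM in O-Ex.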

How the data were processed

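The values deposited by the authors are raw UMI counts per gene and barcode, which the file headers credit to Space Ranger 2.0.0 and the submitters' processing notes to mm10; counting settings: not given in the sources used here. Barcodes with at least 3000 UMIs were kept and counts summed per section or cluster and scaled to CPM. Doublets do not apply to spots. Spots were clustered with scanpy 1.11.5 (2000 variable genes without clock and listed genes, 30 components, Leiden resolution 0.8), giving 19 clusters, 14 of them shared. Region-matched ratios are equal-weight means of log2 ratios over shared clusters with at least 20 counts of the gene in the pair. With 1 section per group no test was run; intervals (95%) are exact Poisson, conditional binomial or Clopper-Pearson and cover counting error only, and code was tested on simulated data. TMM used edgeR 4.0.16 in R 4.3.3. Named genes are all members, any further clock gene, the 2 highest and 2 lowest of other lists, and the 6 genes most like Dbp and Arntl; a few more of the lists are named after their values were seen. Members, lists and the marker minimum for names were chosen with earlier results of these data known. The series' single-nucleus data were not analysed here.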

Additional observations from a re-analysis of the deposited data

How the results depend on the processing

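Over whole sections, 30 log2 ratios (10 clock genes in 3 comparisons) were recomputed with other spot minimums (1000 and 5000 UMIs), without mitochondrially encoded genes, with TMM scaling and with pseudocounts of 1 and 5 CPM. The sign changed for 3 under TMM and for 1 each without mitochondrial genes and at 5000 UMIs, none with a ratio beyond 0.07. Arntl in O-Ctrl over Y-Ctrl and Per2 in both comparisons with O-Ex stayed beyond 0.32 under each of these. The E-box median moved from 0.08 to -0.0045 in O-Ex over O-Ctrl under TMM, and in O-Ex over Y-Ctrl from 0.12 to 0.035 under TMM and to 0.18 when region-matched. Genes with a log2 ratio beyond 0.32 in O-Ctrl over Y-Ctrl, in O-Ex over O-Ctrl and in O-Ex over Y-Ctrl numbered 405, 578 and 1015. They were 256, 319 and 674 with 5 CPM added, 1117, 1509 and 2284 among genes of at least 2 CPM, and 3479, 3973 and 4982 among genes of at least 20 counts, where low counts scatter more. At 1.5-fold they were 95, 117 and 245, and at 2-fold 25, 38 and 68. No clock gene passed 1.5-fold over whole sections. Of region-matched ratios, Per3 in O-Ex over Y-Ctrl (0.34) lay close to 0.32: other clusters, scaling or marker panels and leaving out 1 of several clusters ended its call, with values down to 0.23. Adding 5 CPM over all shared clusters, chosen after seeing the data, took Per3 in O-Ex over O-Ctrl to 0.28. The cause of these moves was not tested. No paired analysis was possible because the labels give 1 section per group and no replicate numbers. Ciart, at 4 UMIs in its thinnest cluster, is limited by depth.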
